A study of Mus musculus with 24 samples.

Results

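Cxcl12 and Cxcr4, a chemokine and its receptor, were taken by name as 2 of the 750 genes with values in 24 samples of mouse mammary tumour, and both were present in every sample. The genes were picked with earlier results of these data known, Cxcl12 because its level differed between infiltrate classes. Its class levels are therefore given as a description, without a test. The tumours were mammary tumour-derived transplants (mTDT) grown in BALB/c hosts. An immune infiltrate was labelled inflamed in 13 samples, excluded in 4 and desert in 7. The basis of the class labels is unknown here, and if these values were used for it, class comparisons of them are not independent. Treatment, age and genotype of tumour or host are likewise not given in the labels. A letter at the start of each sample code is linked to the origin of the tumour, and there are 5 A, 6 C, 2 F, 4 G, 4 H and 3 L samples. The code also holds either 0 (5 samples) or F2 (19 samples), which the labels do not explain. Some samples share a code number and may not be separate tumours: inflamed replicates 3 and 4 (letter A), excluded replicates 2 and 3 (letter C) and desert replicates 3, 4 and 6 (letter C). Replicate numbers only name samples. RNA was counted on the NanoString platform, in which barcoded probes are counted one by one without amplification, and the unit is the deposited log2 value, so that 1 unit is a doubling.

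Cxcl12, also called stromal cell-derived factor 1, is a secreted chemokine made mainly by fibroblasts, endothelial cells and other stromal cells. It binds Cxcr4, a G protein-coupled receptor carried by many leukocytes, by stem cells and by many tumour cells, and the signal through Gi proteins, phosphoinositide 3-kinase and MAP kinases directs migration and survival. In breast cancer the pair is best known for homing of tumour cells to organs rich in the ligand and for the placement of lymphocytes and myeloid cells in the tumour. A second receptor, Ackr3, takes up the ligand without signalling through G proteins, and it was not among the genes with values here. In a bulk sample, fewer cells of a type and less RNA per cell cannot be told apart.

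The stretches just upstream of both genes are shown with their letter matches to common promoter motifs. Among these are GC boxes, bound by Sp1, and the core of the hypoxia element, bound by hypoxia-inducible factor. Whether a matched core is a working hypoxia element was not tested. The stretches come from RefSeq (build GRCm38.p6) and cover the 250 bases before the annotated start, 5′ to 3′ in the direction of the gene, chr6:117168285-117168534 on the plus strand for Cxcl12 and chr1:128592300-128592549 on the minus strand for Cxcr4. Capitals mark GC boxes (GGGCGG), hypoxia element cores (ACGTG or GCGTG) and TATA boxes (TATAAA), each searched on both strands.
Cxcl12: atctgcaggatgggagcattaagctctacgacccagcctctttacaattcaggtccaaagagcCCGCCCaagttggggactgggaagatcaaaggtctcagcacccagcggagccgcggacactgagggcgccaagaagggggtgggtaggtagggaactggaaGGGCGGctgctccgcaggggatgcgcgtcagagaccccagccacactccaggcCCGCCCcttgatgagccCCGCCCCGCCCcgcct
Cxcr4: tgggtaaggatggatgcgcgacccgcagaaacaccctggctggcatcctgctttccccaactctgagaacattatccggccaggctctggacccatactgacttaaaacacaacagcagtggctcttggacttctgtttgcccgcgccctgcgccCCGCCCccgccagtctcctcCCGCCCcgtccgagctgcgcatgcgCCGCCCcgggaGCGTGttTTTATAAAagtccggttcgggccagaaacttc
The Cxcl12 stretch held 5 GC boxes, of which the 2 closest to the start share a base, and no match to the other motifs. The Cxcr4 stretch held 3 GC boxes, 1 GCGTG core and a TATA box read on both strands as 2 overlapping matches. Of 32851 mouse promoters of this length, 32.74% held a GC box, 28.16% GCGTG, 16.57% ACGTG and 12.37% TATAAA. A match describes the letters only, and RNA counts do not measure the use of a motif.

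Depth limited what could be read in part of the samples. The total count recovered per library ran from 5262 to 1110314. Libraries with 100000 counts or more, 16 in number, are called deep here (5 desert, 3 excluded and 8 inflamed), and the remaining 8, which reach at most 46603, shallow. A detection limit was set for each library from its values of 75 genes, those with the lowest mean count over the deep libraries. On the log2 scale the deep libraries had limits of 1.67 to 4.32, and the shallow libraries of 5.14 to 8.40. Cxcl12 exceeded the limit in 19 libraries and Cxcr4 in 17, including all 16 deep ones for both genes. In shallow libraries Cxcl12 rested on 6 to 216 counts and Cxcr4 on 6 to 30, against at least 25 and 95 counts in deep libraries. Of the epithelial markers that a mammary tumour may carry, 3 of 9 had values and 0 counted as expressed, that is above the limit in at least 8 deep libraries. Epcam was high only where the letter was A (10.09 to 10.96 in 3 deep libraries), and elsewhere at most 4.39.

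Cxcl12 was highest in inflamed tumours, lower in deserts and lowest in excluded tumours. In the 13 inflamed samples it ranged from 5.76 to 9.89 with a median of 8.77, and the mean was 8.36 ± 1.30 (SD, n = 13). The 4 excluded samples had 4.12 (replicate 1), 5.69 (replicate 2), 6.06 (replicate 3) and 5.65 (replicate 4), a mean of 5.38 ± 0.86 (SD, n = 4). All but 1 of the inflamed values, 12 of 13, therefore lay above every excluded value. The exception, inflamed replicate 5, rests on 7 counts (5.76, 95% Poisson interval 4.45 to 6.80) and lies under its detection limit of 6.61. Desert samples ranged from 5.06 to 8.17 with a median of 7.40, and the mean was 6.74 ± 1.32 (SD, n = 6, with replicates 3 and 4 averaged because their counts agree within sampling noise). With only 34 and 26 genes above the limit in these 2 libraries, that agreement is mostly of background and cannot show that they are 1 sample. Deserts overlapped both other classes: 8 of 13 inflamed values lay above every desert value, and 1 of 4 excluded values below every desert value.

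The fitted log2 difference of Cxcl12 was 2.98 (SE 0.69), or 7.90-fold, between inflamed and excluded tumours. It was 1.57 (SE 0.57), or 2.97-fold, between inflamed and desert tumours. Excluded tumours differed from deserts by -1.41 (SE 0.76), less than 2 SE. The first difference was larger than the SD of either class and the other 2 were close to the SD of the desert class. These fits count desert replicates 3 and 4 as 2 samples. With the 2 averaged, the differences from deserts were 1.62 (SE 0.60) for inflamed and -1.36 (SE 0.79) for excluded tumours. In deep libraries alone, all 8 inflamed values (6.17 to 9.89) lay above all 3 excluded values (4.12 to 6.06). A gap of this kind was found for 1.33% of the 750 genes in the same libraries, and the reverse gap for 2.27%. No gene lay higher throughout the inflamed class over all 24 libraries (0.0%). Every inflamed deep value below every desert one was found for 0.267% of the genes and every excluded deep value below every desert one for 1.87%, and Cxcl12 had neither. Since Cxcl12 was chosen on this contrast, these shares are background only.

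**Figure D1:**
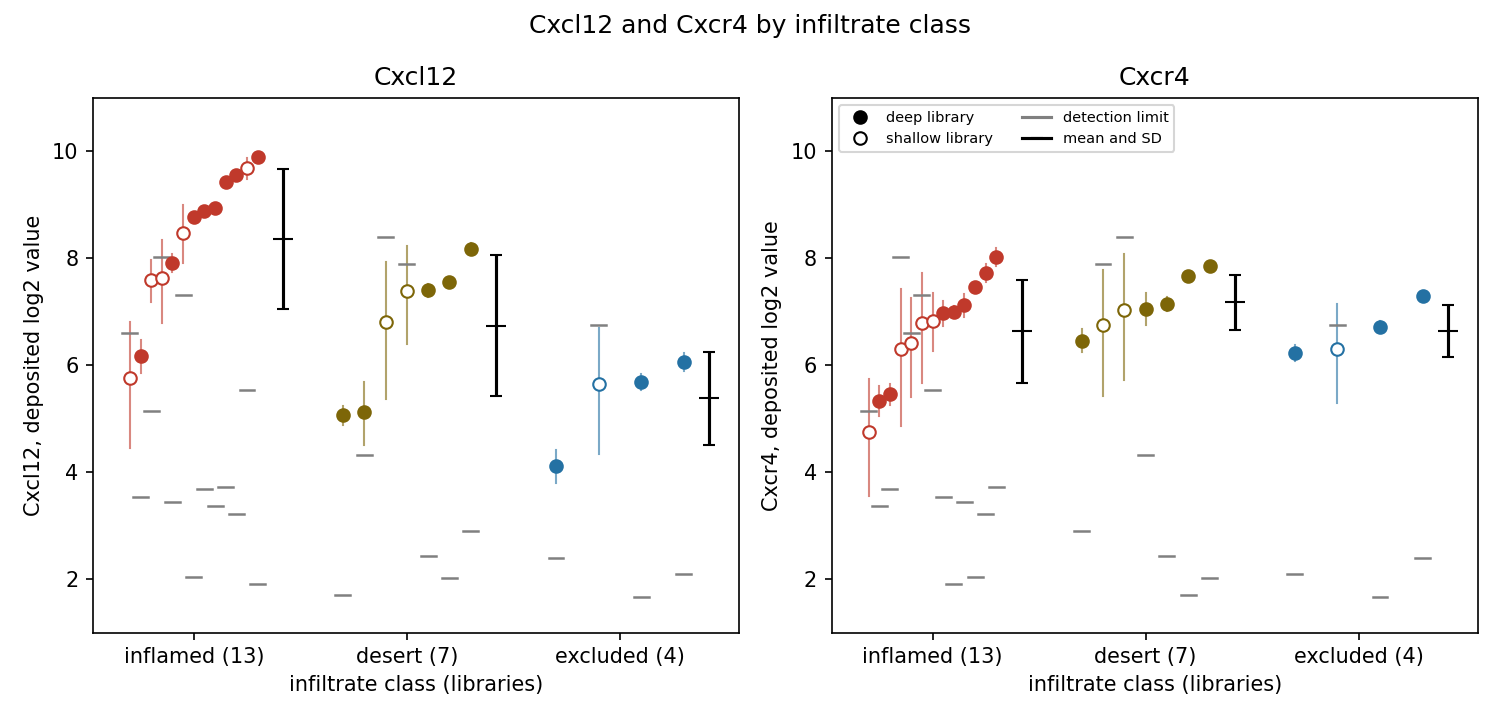
Deposited log2 values of Cxcl12 (left) and Cxcr4 (right) in each library by infiltrate class, with filled points for deep and open points for shallow libraries, thin bars for the 95% Poisson counting interval, grey ticks for the detection limit, and black bars for mean ± SD. Inflamed libraries reach 9.89 for Cxcl12 while excluded libraries stay at or below 6.06, and the classes overlap for Cxcr4.

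Class and tumour origin overlap in these samples, so Cxcl12 was also set out within letters. In letter A the excluded sample stood at 4.12 and the 4 inflamed samples at 5.76, 7.59, 8.89 and 8.94. In letter G the desert sample stood at 5.06 and the 3 inflamed samples at 7.92, 9.56 and 9.69. In letter L the excluded sample stood at 5.65 and the 2 inflamed samples at 6.17 and 9.89. The inflamed value was thus the higher one in 9 of 9 samples in the 3 letters that hold an inflamed and another class, a pattern found for 0.4% of the genes. In the deep libraries of letters A and G alone it held for 18.5% of the genes, Cxcl12 included. As Cxcl12 was chosen for its level over the classes, these shares are background only. The 5.76 in letter A rests on 7 counts, under the detection limit. In letter L the lower inflamed value (87 counts, 5.85 to 6.47) cannot be separated from the excluded one (7 counts, 4.34 to 6.70). In letters A and G the sample of the other class also is the only one with a 0 code, so class and code cannot be told apart there.

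Letters C, F and H added the comparisons that do not involve both inflamed and other samples. In letter C the 2 excluded samples (5.69 and 6.06) lay below all 4 desert samples, which had 6.82, 7.40, 7.40 and 8.17, a pattern shared by 21.7% of the genes. The lower desert pair (6 and 11 counts) lies under its detection limits, and the deep desert samples had 7.40 and 8.17, a comparison in which 31.1% of the genes showed the pattern. Both samples of letter F were desert, with 7.56 and 5.13. All 4 samples of letter H were inflamed, with 7.63, 8.48, 8.77 and 9.43. With letter as a fixed block the fitted difference between inflamed and excluded tumours was 3.70 (SE 0.86), and between inflamed and desert tumours 2.80 (SE 0.99). In deep libraries with the same block they were 5.10 (SE 1.05) and 3.38 (SE 1.05), against 3.41 (SE 0.79) and 2.03 (SE 0.66) in deep libraries without it. Of the deep libraries, only those of letters A and G hold inflamed samples beside another class, in each through 1 sample with a 0 code. These blocked differences therefore rest on letters in which class and code cannot be told apart.

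By letter, the mean of Cxcl12 ran in the order H (8.58 ± 0.75, n = 4), G (8.06 ± 2.15, n = 4), L (7.24 ± 2.31, n = 3), A (7.06 ± 2.09, n = 5), C (6.89 ± 1.01, n = 5) and F (6.34 ± 1.71, n = 2). No 2 neighbours in this order differed by more than their SD. Over the deep libraries the SD of Cxcl12 was 1.82, which ranked 14 among the expressed genes, and that of Cxcr4 was 0.78, which ranked 324.

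**Figure D2:**
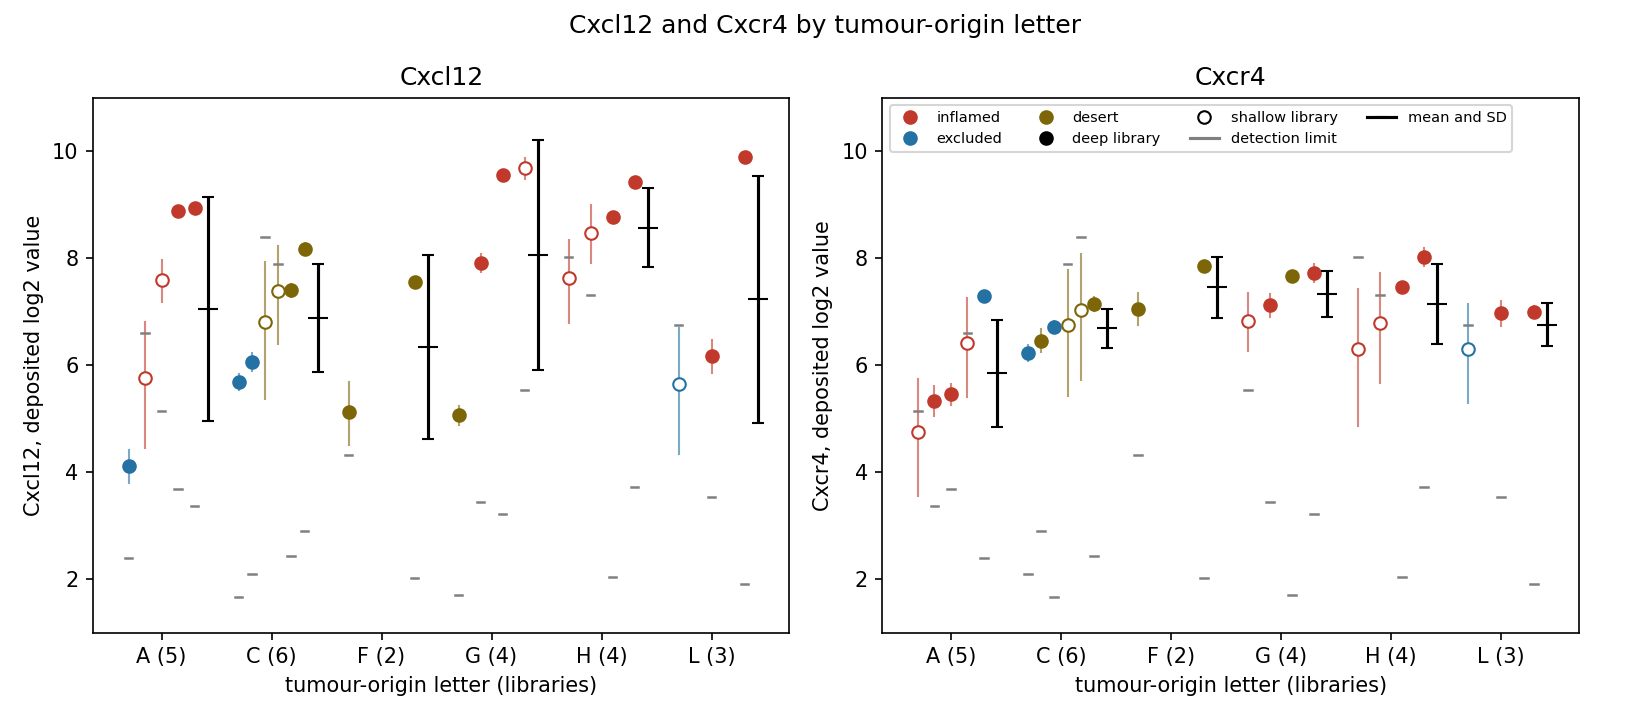
Deposited log2 values of Cxcl12 (left) and Cxcr4 (right) by tumour-origin letter, coloured by infiltrate class, with points, intervals, limits and mean ± SD drawn as in the plot by class. In letters A, G and L every inflamed Cxcl12 value lies above the sample of another class, and the inflamed samples of letter A hold the lowest Cxcr4 values.

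Cxcr4 did not differ detectably between the classes. It ranged from 4.76 to 8.03 with a median of 6.84 in inflamed tumours (6.63 ± 0.96, SD, n = 13) and from 6.46 to 7.86 with a median of 7.06 in deserts (7.18 ± 0.51, n = 6). The excluded samples had 7.30, 6.71, 6.23 and 6.31 (6.64 ± 0.49, n = 4). The inflamed range contained every excluded and every desert value. With limma, the fitted log2 difference was -0.003 (SE 0.48) between inflamed and excluded tumours, -0.51 (SE 0.39) between inflamed and desert tumours and -0.50 (SE 0.53) between excluded and desert tumours, each at an adjusted p of 0.999. limma called 0 of 750 genes (0.0%) in each of these comparisons, with 25, 39 and 18 genes at an unadjusted p under 0.05. The interval of 2 SE around the first difference spans almost 1 log2 unit on either side, so a doubling is at the edge of what these samples could show. With letter as a fixed block the difference was -0.52 (SE 0.52, adjusted p = 0.981), and in deep libraries with that block -1.15 (SE 0.53, p = 0.0506, adjusted p = 0.161, limma). Between inflamed and desert tumours the latter fit gave -0.99 (SE 0.53, adjusted p = 0.494, limma). For both comparisons that fit rests on the inflamed samples of letters A and G, in which class and code cannot be told apart.

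The lowest Cxcr4 values among inflamed tumours came from letter A. Its 4 inflamed samples had 4.76, 5.34, 5.46 and 6.41, below the excluded sample of that letter (7.30). The 4.76 (8 counts) and 6.41 (11 counts) come from shallow libraries and lie below their detection limits, while 5.34 and 5.46 come from the deep pair with 1 code number. The other 9 inflamed samples had 6.31 to 8.03. Without that pair, the deep libraries gave a difference of 0.64 (SE 0.38, adjusted p = 0.661, limma) between inflamed and excluded tumours and 0.15 (SE 0.32, adjusted p = 0.879) between inflamed and desert tumours.

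The means of Cxcr4 by letter were 7.46 ± 0.57 in F (n = 2), 7.34 ± 0.43 in G (n = 4), 7.15 ± 0.76 in H (n = 4), 6.76 ± 0.40 in L (n = 3), 6.69 ± 0.36 in C (n = 5) and 5.85 ± 1.00 in A (n = 5). Neighbours in this order did not differ by more than their SD. The gap from C to A, 0.84, was the widest. limma's moderated F test over the 6 letters gave F = 2.68 with an adjusted p of 0.615, and it called 0 genes (0.0%), with 60 genes at an unadjusted p under 0.05. In deep libraries it called 3 genes (0.4%), and Cxcr4 was not among them (F = 2.74, adjusted p = 0.287).

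Samples with a 0 code had higher Cxcr4 than most samples with an F2 code, and the difference did not pass the test. The 5 samples with 0 had 7.0 (L), 7.30 (A), 7.47 (H), 7.66 (G) and 7.86 (F), a mean of 7.46 ± 0.33 (SD, n = 5). The F2 samples ranged from 4.76 to 8.03 with a median of 6.74 (6.59 ± 0.81, n = 18). In each of the 5 letters with both codes the F2 mean lay below the 0 value, which held for 7.6% of the genes, and 11 of 13 F2 values lay below the 0 value of their letter. The fitted difference was -0.85 (SE 0.40, adjusted p = 0.146, limma), in a comparison that called 36 genes (4.8%). In deep libraries it was -0.71 (adjusted p = 0.356), with 31 genes called (4.13%). Of the 36, none remained called without inflamed replicate 1 or 2 or desert replicate 1 or 2. With letter as a fixed block it was -0.79 (SE 0.36, adjusted p = 0.172).

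Cxcl12 showed no common direction in the same comparison. It stood at 4.12 (A), 5.06 (G), 7.56 (F), 8.77 (H) and 9.89 (L) in the samples with 0, and at 5.13 to 9.69 with a median of 7.59 in those with F2. The F2 mean was higher than the 0 value in letters A and G and lower in F, H and L. The fitted difference was 0.42 (SE 0.80, adjusted p = 0.734, limma). All 5 libraries with 0 were deeper than every F2 library, with 982205 to 1110314 counts against 5262 to 976271 with F2, so code and depth cannot be told apart. The 9 measured macrophage and monocyte markers all had lower values in F2, with a median of -0.90 (0 passed). Over all genes the median was 0.16, and 57.07% had higher values in F2. All 11 measured T cell markers (median 1.60, 4 expressed) and all 5 B cell markers (median 1.95, 0 expressed) had higher values in F2. In deep libraries 10 of the 11 and all 5 were higher, with medians of 0.50 and 0.81, against -0.05 over all genes. All shallow libraries had F2 codes and higher detection limits, so differences of markers that were not expressed largely compare background. Of these T and B cell markers 0 passed. Of the 7 endothelial markers Pecam1, an adhesion molecule of endothelium, fell by 1.71 (adjusted p = 0.043, limma, and 0.076 in deep libraries). Pecam1 did not pass with a fixed letter block, after quantile normalisation, with a pseudocount of 10, with the lowest genes left out or with voom weights. It also did not pass in many of the runs that left out 1 sample. Of the 8 fibroblast and pericyte markers 0 passed over all libraries, and in deep libraries Thy1 and Col11a1 fell in F2, by 1.34 (adjusted p = 0.0466) and 2.55 (adjusted p = 0.0313, limma). Their part in the Cxcr4 difference was not tested.

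No relation between ligand and receptor was detected. Over the 16 deep libraries the Pearson correlation of Cxcl12 with Cxcr4 was -0.09 (permutation p = 0.749) and Spearman's rho was 0.006 (permutation p = 0.987), 2-sided with 100000 resamples, and 0.987 was the larger p after Benjamini-Hochberg adjustment over the 2 measures. Without excluded replicate 1 and desert replicate 2, the samples farthest from the Cxcl12 median, r was 0.076 (n = 14, permutation p = 0.795), and with samples of 1 code number averaged it was -0.01 (n = 14). Within the 8 deep inflamed libraries r was 0.08 (permutation p = 0.855), and in the 8 shallow libraries it was 0.13 (permutation p = 0.735).

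The difference between the 2 log2 values in 1 library does not depend on the factor by which that library was scaled. Since the probes of the 2 genes may differ in efficiency, its size has no meaning by itself, only its change between libraries. It ranged from -0.81 to 3.60 in inflamed samples with a median of 1.69 (1.73 ± 1.40, SD, n = 13). In the excluded samples it was -3.18, -1.02, -0.17 and -0.65 (-1.26 ± 1.33, n = 4), and in deserts it ran from -2.60 to 1.71 (-0.44 ± 1.58, n = 6). Inflamed and excluded samples overlapped through inflamed replicates 5 (-0.65) and 13 (-0.81). Inflamed replicate 5 and excluded replicate 4 each rest on 7 counts of Cxcl12 and 11 of Cxcr4, both under the detection limit. In the 2 deep libraries of letter H the difference was 1.30 and 1.40. The 2 shallow ones, with 1.32 and 1.69, rest on 6 and 9 counts of Cxcr4, under the detection limit.

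**Figure D3:**
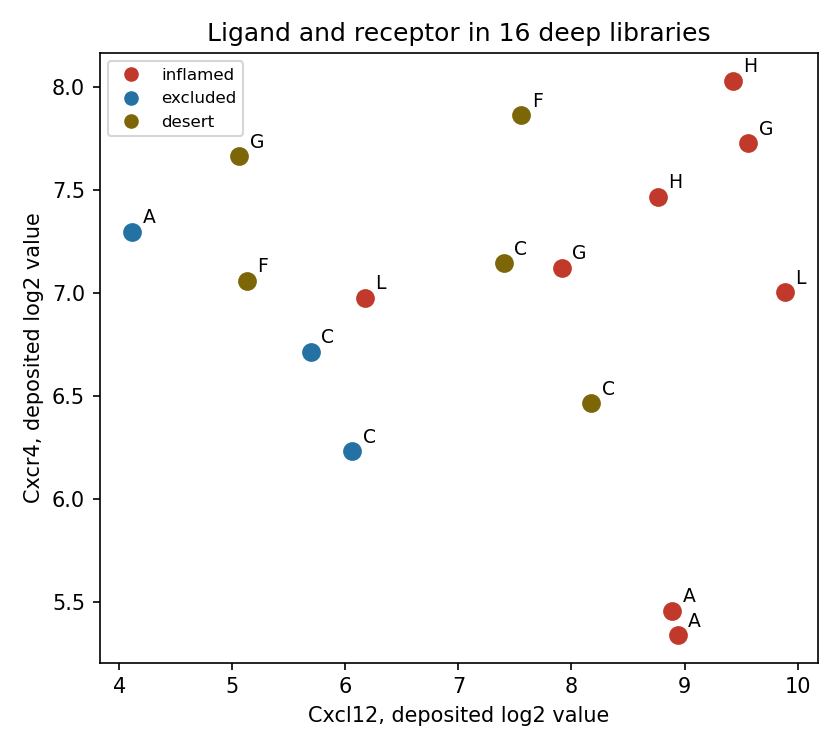
Cxcr4 against Cxcl12 in the 16 deep libraries, both as deposited log2 values, with 1 point per library coloured by class and marked with its tumour-origin letter. The points show no clear slope (r = -0.09), and the 2 points at the lower right are the inflamed pair of letter A with 1 code number.

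In deep libraries at the deposited scaling, the strongest relations of other genes with Cxcl12 were negative, an order that depended on the scaling. Among the 566 other genes expressed in deep libraries, Spearman's rho with Cxcl12 over the 16 libraries had a median of 0.003. The 5 highest were Rad50, a DNA break repair gene (0.71), the transcription factor gene Myc (0.66), Fstl3, whose product binds activins (0.64), the cyclin gene Ccnd2 (0.57) and the pro-apoptotic gene Bid (0.56). The 3 lowest were Snai1, a transcriptional repressor of epithelial genes (-0.87), Anln, which encodes a scaffold protein of cytokinesis (-0.84), and Gata3, a transcription factor of luminal mammary cells (-0.82). Snai1 spanned only 5.29 to 6.70. After quantile normalisation rho was -0.51 for Snai1, -0.70 for Anln and -0.51 for Gata3, but 0.83 for Fstl3. With median centring Snai1, Anln and Gata3 had -0.46, -0.55 and -0.41, and the 5 highest had 0.65 to 0.80. Over all 24 libraries the 3 lowest had -0.52, -0.58 and -0.41, and the 5 highest 0.45 to 0.56. The points share scaling factors and tumour origins, and these values are descriptions.

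For Cxcr4, too, the strongest relations in deep libraries at the deposited scaling were negative. The 3 lowest values of rho over the same 16 libraries belonged to Birc5, which encodes the mitotic protein survivin (-0.91), Ube2t, a ubiquitin-conjugating enzyme of DNA repair (-0.89), and the mitotic kinase gene Melk (-0.87). Without the deep inflamed pair of letter A they were -0.86, -0.83 and -0.81 (n = 14), and after quantile normalisation -0.79, -0.70 and -0.70. Birc5 stood at 10.71 and 10.80 in that pair and at 8.06 in inflamed replicate 1 (letter H), where Cxcr4 was 7.47. The 5 highest were Ifngr2, a chain of the interferon gamma receptor (0.84), the adaptor gene Shc2 (0.80), Entpd1, which encodes the ectonucleotidase CD39 (0.80), the TGF-beta receptor gene Tgfbr1 (0.79) and Rictor, a subunit of mTOR complex 2 (0.79). Over all 24 libraries Birc5 had -0.59, Ube2t -0.81 and Melk -0.56. There Ifngr2 had 0.79, Entpd1 0.73, Tgfbr1 0.71, Rictor 0.67 and Shc2 0.25. With median centring in deep libraries, Birc5, Ube2t and Melk had -0.76, -0.75 and -0.75, and the 5 highest had 0.56 to 0.81. The median over all 566 genes was 0.25.

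**Figure D4:**
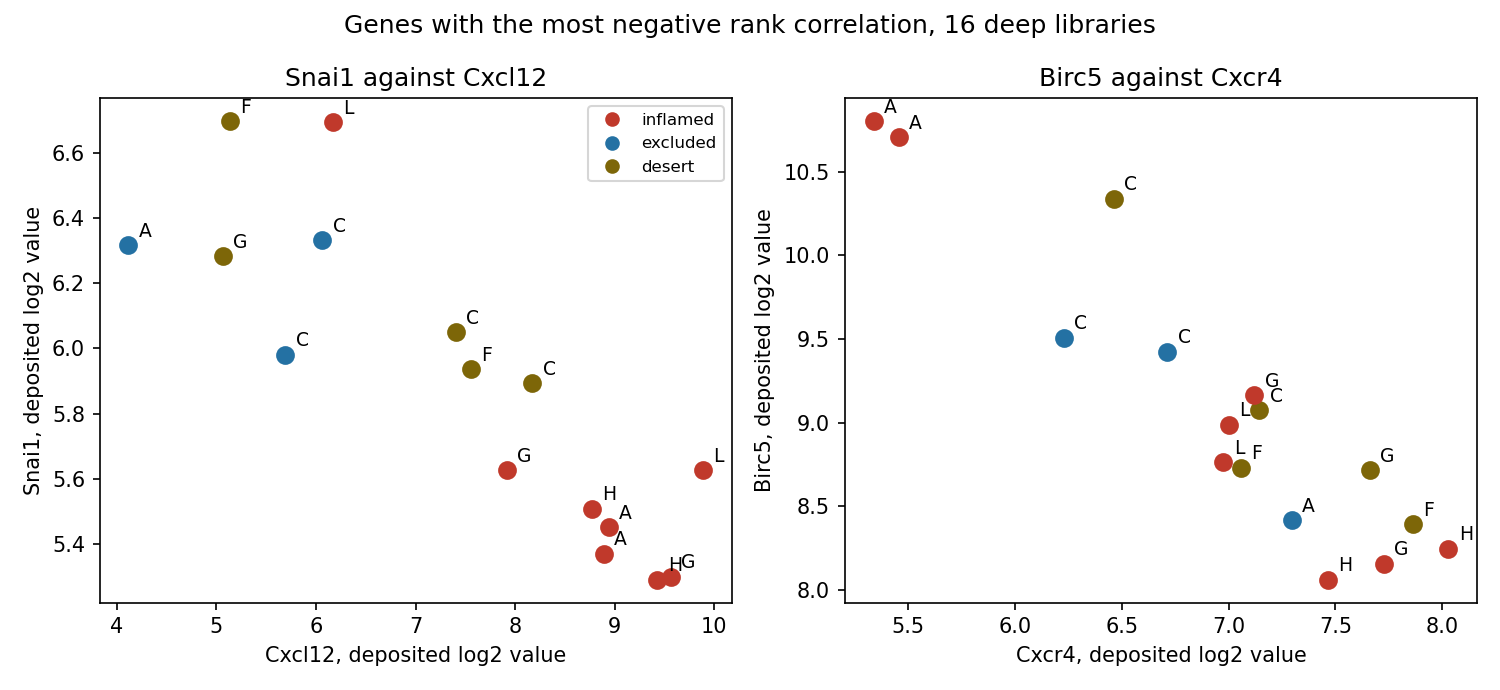
Snai1 against Cxcl12 (left) and Birc5 against Cxcr4 (right) in the 16 deep libraries, as deposited log2 values, coloured by class and marked with the tumour-origin letter. Both clouds slope downward (rho -0.87 and -0.91), and the letter A pair lies at the upper left of the right panel.

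The rest of the CXC family showed no gene that passed the test between classes. Of 15 CXC chemokines listed, 13 had values, and beside Cxcl12 the other 12 differed between inflamed and excluded tumours by -1.41 to 1.71, with a median of -0.07 against 0.06 over all genes. None of the 12 passed in either direction in any of the 3 class comparisons (0.0% of all genes passed). Cxcl13, which attracts B cells, differed by 1.71 (SE 0.94) and the neutrophil-attracting Cxcl5 by -1.41 (SE 0.88). Cxcl3 differed by 1.504 (SE 0.85), Cxcl2 by 0.53 and Cxcl1 by -0.35 in the same comparison. The neutrophil-attracting members thus had no common direction there. Cxcl13 exceeded the detection limit in 6 of 16 deep libraries. Between inflamed and desert tumours, the neutrophil-attracting Cxcl1 and Cxcl2 stood at -2.03 and -2.23, opposite in sign to Cxcl12 at 1.57, and the interferon-induced Cxcl9 and Cxcl10 at 1.04 and 0.70.

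Of 7 CXC receptors listed, 5 had values. Beside Cxcr4, Cxcr2, the receptor of neutrophils for Cxcl1 and its relatives, differed by -0.93 (SE 0.66) between inflamed and excluded tumours. Cxcr3 and Cxcr6, found on activated T cells, differed by 0.31 and 0.13, and the B cell receptor Cxcr5 by 0.45. Cxcr5 exceeded the detection limit in 0 of 16 deep libraries, so its differences compare background. None of these 4 receptors passed in the class or code comparisons over all libraries.

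**Figure D5:**
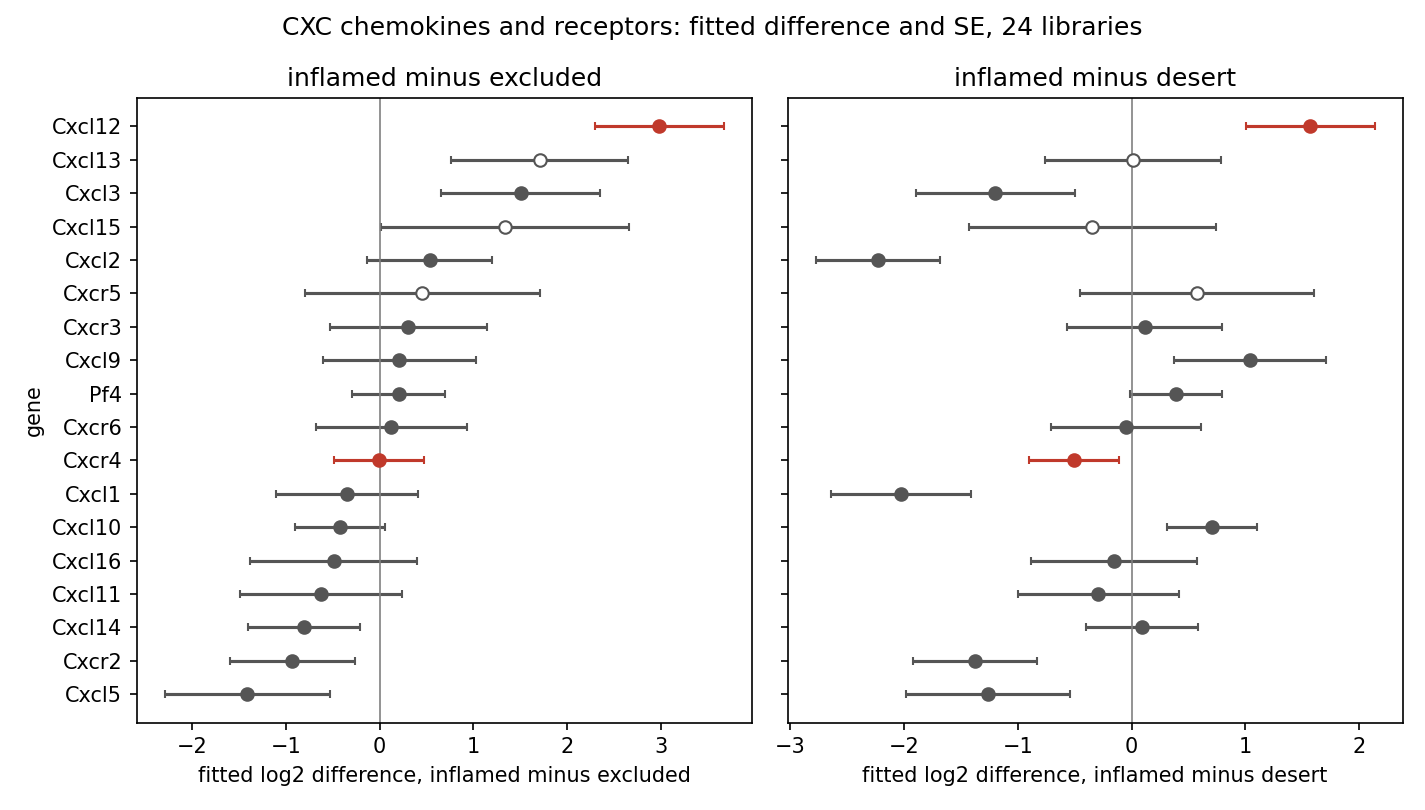
Fitted log2 differences (points) with their SE (bars) for the measured CXC chemokines and receptors over 24 libraries, inflamed minus excluded on the left and inflamed minus desert on the right, with Cxcl12 and Cxcr4 in red and open points for genes not expressed in deep libraries. Cxcl12 lies at 2.98 and 1.57, and Cxcr4 at -0.003 and -0.51.

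Partners and signal carriers of the pair also did not pass. Of 40 genes listed, 24 had values, and beside the pair 0 of 22 passed in any class comparison. Between inflamed and excluded tumours 17 of the 22 were lower, with a median of -0.32. Over all genes that median was 0.06, and 52.67% of them were higher. Between excluded and desert tumours 19 of 22 were higher, with a median of 0.29. Over all genes that median was -0.06, and 46.27% of them were higher. The lowest in inflamed against excluded tumours were Mmp9 (-1.54, SE 0.78), a protease that cleaves Cxcl12, Tgfb1 (-0.88, SE 0.59), a growth factor that acts on fibroblasts and immune cells, and Tgfb3 (-0.85, SE 0.36). Dpp4, the peptidase that inactivates Cxcl12, differed by 0.17 (SE 0.77). Cxcl14, a chemokine reported to bind Cxcr4, differed by -0.81 (SE 0.60). Hif1a, the oxygen-sensing factor known to induce both genes, differed by 0.07 (SE 0.32). The kinase subunit genes Pik3cd and Pik3cg, which act below the receptor in leukocytes, differed by 0.01 and -0.12. Of 17 hypoxia response genes, 12 had values and 0 passed between classes, with a median of -0.07 between inflamed and excluded tumours. In deep libraries this median was 0.22, with 10 of 12 higher, against 0.004 and 50.4% higher over all genes. Against deserts in deep libraries 10 of 12 were lower in inflamed tumours (median -0.38) and 11 of 12 in excluded tumours (median -0.70). Over all genes 58.53% and 58.27% were higher there. Hk2, a hexokinase of glycolysis, rose in F2 against 0 codes (2.06, SE 0.41, adjusted p = 0.026, limma), and not after quantile normalisation or with a pseudocount of 10.

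Of 21 fibroblast and pericyte markers 8 had values, all expressed, and 0 passed between classes. Their summed log2 level over deep libraries was 10.07 to 10.85 in inflamed, 10.001 to 11.46 in excluded and 9.05 to 11.21 in desert tumours, with rho of 0.07 against Cxcl12 over 16 libraries. Pdgfrb, a receptor of pericytes and fibroblasts, differed by 0.37 between inflamed and excluded tumours and by 0.93 (SE 0.47) between inflamed and desert tumours, with rho of 0.44 against Cxcl12, while Twist2, a transcription factor of mesenchymal cells, had -0.54. Fap, a protease of activated fibroblasts, differed by -0.92 between inflamed and excluded tumours and the collagen gene Col6a3 by -1.05. Of 12 endothelial markers 7 had values, and their sum was 8.67 to 10.19 in inflamed, 9.23 to 10.18 in excluded and 8.26 to 10.73 in desert tumours (rho -0.22 with Cxcl12, 0.57 with Cxcr4). The macrophage and monocyte sum (9 of 11 markers) was 9.04 to 12.95 in inflamed, 10.62 to 12.21 in excluded and 10.46 to 11.78 in desert tumours, with rho of 0.14 against Cxcl12 and 0.48 against Cxcr4.

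Of 9 neutrophil markers 6 had values, and 0 passed between classes over all libraries. The summed level of the 5 expressed ones in deep libraries was 6.39 to 10.82 in inflamed, 9.61 to 10.53 in excluded and 10.52 to 12.26 in desert tumours, with rho of -0.54 against Cxcl12. S100a8, a calcium-binding protein of neutrophils, fell by 3.19 (SE 0.61) in inflamed against desert tumours in deep libraries (adjusted p = 0.0243, limma), 1 of 2 genes called there (0.267%, the other being Hdc, named after its values were seen), and differed by -1.96 over all libraries without passing. In deep libraries 0 genes passed in this comparison with a letter block or without inflamed replicates 3 and 4. Ly6g, the marker that defines mouse neutrophils, exceeded the detection limit in 2 of 16 deep libraries. Of the T cell markers, 11 of 12 had values and 4 were expressed, with a sum of 4.63 to 6.72 in inflamed, 5.19 to 5.63 in excluded and 3.44 to 5.77 in desert tumours (rho 0.16 with Cxcl12, 0.17 with Cxcr4). Of 7 B cell markers 5 had values and 0 were expressed. The part of any of these cells in the levels of Cxcl12 and Cxcr4 was not tested.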

How the data were processed

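Total RNA was extracted with Trizol and counted on the NanoString platform, per the labels. The authors deposited log2 values, 1 column per sample. Of 784 rows, 34 held no value, which leaves 750 genes. The image processing, background subtraction and scaling rule were not stated in what was at hand. Each column was multiplied by the least factor that turned all its linear values into whole counts (within 0.001). Detection limits are, for each library, the mean plus 2 SD of its log2 values of the same 75 genes. These had the lowest mean count over the deep libraries. Intervals are exact Poisson intervals (95%) and cover counting error only.

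Genes were fitted with limma 3.58.1 in R 4.3.3 (lmFit, eBayes, 2-sided, all 24 samples, Benjamini-Hochberg over 750 genes, threshold 0.05), which was tested on simulated data. If some samples are not separate tumours, the p-values reflect spread that may be technical. The members, lists, depth limit and alternatives were chosen with earlier results of these data known. Named genes are the pair, the 5 highest and 3 lowest by Spearman's rho with each, the measured members of the axis and CXC lists, and up to 4 with the smallest p in inflamed against excluded tumours for other lists. Pdgfrb, Ly6g, Pecam1 and genes named beside counts of 5 or fewer were named after their values were seen. Alternatives were another scaling, a pseudocount of 10, a filter on low values, other variance models, voom weights (limma), letter blocks (statmod 1.5.0 for the random one), averaging of samples, deep libraries or F2 codes only, and leaving out each sample. Chosen after the data were seen were deep libraries with a letter block and without inflamed replicates 3 and 4.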

Additional observations from a re-analysis of the deposited data

How the results depend on the processing

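Cxcl12 kept its direction in all 3 class comparisons under every alternative run. Its difference between inflamed and excluded tumours ran from 2.56 to 3.21 when each sample was left out in turn, and it was 5.10 in deep libraries with a letter block. Between inflamed and desert tumours it ran from 1.28 to 1.80 with each sample left out, with 2.80 under a fixed letter block and 3.38 in deep libraries with that block. Between excluded and desert tumours it ran from -1.70 to -0.99 with each sample left out. In deep libraries with a letter block, inflamed class and code cannot be told apart, for either gene. Cxcr4 passed the test in none of the settings, and its differences near 0 changed sign: between inflamed and excluded tumours it was 0.14 in deep libraries and with median centring, 0.10 after quantile normalisation, 0.0201 with a pseudocount of 10, 0.0449 with code numbers averaged, 0.12 with voom weights, 0.11 in F2 codes, 0.64 in deep libraries without inflamed replicates 3 and 4, but -0.52 with a fixed letter block and -1.15 in deep libraries with that block, and -0.14 to 0.22 with each sample left out. It was 0.15 between inflamed and desert tumours in deep libraries without that pair (-0.62 to -0.35 with each sample left out), and 0.17 between excluded and desert tumours in deep libraries with a letter block (-0.72 to -0.37). Between F2 and 0 codes, with each sample left out, it ran from -0.97 to -0.75 and Cxcl12 from -0.32 (without excluded replicate 1) to 1.12. In the other settings Cxcr4 came closest to 0, at -0.41, in deep libraries without inflamed replicates 3 and 4. The letter F of Cxcr4 ran from 1.78 to 4.67 with each sample left out and was 0.86 after quantile normalisation, 1.199 with median centring and 3.86 with voom weights. The correlation of the pair was 0.0764 without the 2 farthest samples. Median centring moved the median of all genes by 0.14 (inflamed against excluded) and 0.21 (inflamed against desert), and quantile normalisation moved that of F2 against 0 codes by -0.21.

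Counts of called genes depended on the setting, and the cause was not tested. Inflamed against excluded tumours gave 1 gene, Cxcl12, after quantile normalisation and without inflamed replicate 5 (0 to 1 over samples left out), and 62 in deep libraries with a letter block. As Cxcl12 was chosen on this contrast, the calls do not count as support. Inflamed against desert tumours gave 2 in deep libraries (Hdc and S100a8), 1 after quantile normalisation (Cxcl2) and 5 with voom weights (Areg, Cxcl2, Hdc, Tnfrsf9 and Twist2), and 0 with any sample left out. Excluded against desert tumours gave 1 with voom weights (Cxcl2) and 0 with any sample left out. F2 against 0 codes gave 141 with median centring, 0 after quantile normalisation and with a pseudocount of 10, 1 (Hk2) with the lowest genes left out and with voom weights, 105 with code numbers averaged, 3 (Dusp1, Foxp3 and Hk2) with a fixed letter block, 95 in deep libraries with that block, 10 in deep libraries without inflamed replicates 3 and 4, and 0 to 84 with each sample left out. It was 0 without inflamed replicate 1 or 2 or desert replicate 1 or 2, 1 to 6 without excluded replicate 1 or 4, desert replicate 3 or 7 or inflamed replicate 5, 6, 7, 9 or 12, and 67 to 84 without excluded replicate 2 or 3 or desert replicate 5. Letters gave 3 in deep libraries, 57 with voom weights and 1 under 7 other settings (0 to 1 over samples left out), the single gene being Epcam.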

Other observations

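Only 3 of the 750 genes, Cxcl12 included, had every inflamed value above the sample of another class in letters A, G and L. The others were Trem2, a receptor of lipid-laden macrophages, and Srp54a, which encodes a subunit of the signal recognition particle, both named after their values were seen. Their narrowest gaps were in letter A, where the lowest inflamed value was 6.28 against 6.27 for Trem2 and 4.95 against 4.87 for Srp54a. The narrowest gap of Cxcl12 was in letter L, with 6.17 against 5.65, and the latter rests on 7 counts, under the detection limit. Since Cxcl12 was chosen for its level over the classes, its place among these genes is background only. None of the 14 sets of 4 to 10 values of Cxcl12 or Cxcr4 tested for a value far from the others, by class, letter or code, gave one. The inflamed class (13 samples), the F2 codes (19) and letters F (2) and L (3) lay outside that size and were not tested. In sets this small a far value can be missed.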
